A study of Rattus norvegicus with 9 samples.

Results

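The genes described here are 33 genes of cholesterol metabolism: enzymes that make it, proteins that sense it, and proteins that take it up, store it or carry it out of the cell. They were chosen by name, and all 33 were found among the 17337 genes of the deposited count table. The study sequenced RNA of cultured cardiac fibroblasts, which build and maintain the extracellular matrix of the heart, from Sprague Dawley rats of 3 ages. Each age had 3 libraries: adults were 7 weeks old, neonates were at postnatal day 1, and fetal hearts were from embryonic day 18. All cells carried the label P0 and were grown to confluency in DMEM with antibiotics, 10% fetal bovine serum and 0.1 mM ascorbic acid. Every group thus had serum at the same percentage, which does not show that it was the same serum. Nothing in the labels says that the 3 libraries of an age came from separate animals or cultures, and p-values then measure only the spread between these libraries.

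Cells make cholesterol from acetyl-CoA through mevalonate, isoprenoid units, squalene and lanosterol, and they also take it up from lipoproteins. In the membrane of the endoplasmic reticulum, Scap carries the SREBP transcription factors, which are encoded by Srebf1 and Srebf2. When sterols are plentiful, the Insig proteins hold Scap back; when sterols are scarce, Scap takes the SREBPs to the Golgi, where they are cut and released to switch on synthesis genes. Oxysterols activate the liver X receptors, which switch on efflux genes such as Abca1 and Abcg1. Cultured fibroblasts are the cells in which much of this feedback was first worked out.

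The libraries held 13392825 to 22850491 assigned reads, with the adult libraries the shallowest at 13392825 to 13810825. Levels are given as CPM, counts per 1000000 assigned reads, with library sizes scaled by the trimmed mean of M values (TMM). Fetal replicate 3 stood apart: 9 epithelial markers summed to 445 CPM there and to 51.5 and 51.4 CPM in fetal replicates 1 and 2. Their sum was 8.92 to 10.1 CPM in neonatal and 2.45 to 2.85 CPM in adult libraries. The sum of 11 fibroblast markers was 27599 CPM in fetal replicate 3 against 54144 and 51022 CPM in replicates 1 and 2. Most of that sum was Col1a1 (14800 against 32990 and 30314 CPM) and Col3a1 (7294 against 15888 and 15731 CPM). Among the other fibroblast markers, Pdgfra, Postn and Vim had their highest fetal level in replicate 3. Ddr2, Tcf21, Thy1, Dcn and Lum had their lowest there. Col1a2 did too, at 8, 17 and 1 counts in fetal replicates 1, 2 and 3. Macrophage markers (16 genes) summed to 15.9 to 83.3 CPM in fetal, 180 to 199 CPM in neonatal and 5050 to 7016 CPM in adult libraries, and all 16 were higher in the adults than at either other age; Cd163 had no count in any fetal or neonatal library. Cardiomyocyte markers (13 genes) ran the other way, from 10346 to 14672 CPM in fetal through 6713 to 7395 CPM in neonatal to 305 to 321 CPM in adult libraries, where Myh6, Myh7, Csrp3 and Myl2 were at or below 3 counts in each library and Tnnt2 made up 303, 310 and 316 CPM of the sums. Fibroblast markers summed to 72138 to 78390 CPM in neonatal and 27042 to 35606 CPM in adult libraries, and their member Col1a2 stayed under 1 CPM in all 9 libraries. Col1a2 had 1 to 21 counts per library, while Col1a1 averaged 26035, 37796 and 14965 CPM in fetal, neonatal and adult libraries. The part of the gene annotation used for counting in these low Col1a2 counts was not tested. Pdgfra, Tcf21, Vim and Dcn averaged higher in adult than in neonatal libraries and the other fibroblast markers lower. Adipocyte markers (8 genes) reached 90.7 to 121 CPM in the adults, with Adipoq, Plin1, Cidec and Retn at or below 3 counts there. Fabp4 alone made up 79.7, 101 and 114 CPM of these sums, and adult Pparg levels overlapped those of both other ages. Endothelial markers (9 genes) summed to 18.0 to 27.6, 30.5 to 34.8 and 99.8 to 120 CPM in fetal, neonatal and adult libraries. Tie1 made up 69.9, 72.5 and 68.6 CPM of the adult endothelial sums. Pecam1, Cdh5 and Vwf were also higher in the adults than at either other age. Kdr was lower there than at either, and Tek lower than in neonatal libraries. Mural markers (6 genes) summed to 269 to 702, 1178 to 1238 and 189 to 350 CPM in fetal, neonatal and adult libraries. In bulk RNA such as this, fewer cells of a type and less RNA per cell cannot be told apart. What part these cell types have in the differences below was not tested.

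Most of the 33 genes rose with age. From fetal to neonatal libraries 22 of 33 rose and only Abcg1 fell, where 18.3% of all genes tested were higher and 18.0% lower. From fetal to adult libraries 26 rose and none fell, beside 34.9% of all genes higher and 35.5% lower. From neonatal to adult libraries 19 rose and 4 fell, namely Acat2, Hmgcs1, Sc5d and Insig2, beside 31.6% of all genes higher and 31.8% lower. A gene is called higher or lower here when its p-value, from edgeR's quasi-likelihood test with Benjamini-Hochberg adjustment over all 11337 genes tested, is under 0.05. All 33 genes passed the filter on low counts.

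Differences between the ages were common in the whole table. Some difference among the 3 ages was called for 77.6% of all genes and for 30 of these 33. The median log2 fold change of the 33 genes was 0.36 for neonatal against fetal, 0.73 for adult against fetal and 0.37 for adult against neonatal libraries, beside all-gene medians of -0.0053, -0.013 and -0.0065. Of the differences called, 1, 12 and 7 reached 1 in size on the log2 scale in these 3 comparisons. The neonatal rise was small and the count depended on settings: 13 genes rose without neonatal replicate 2, when the genes called higher in the whole table also fell from 2074 to 1386, and 9 rose when libraries were scaled by size alone. Scaling by size alone moved the all-gene median to -0.18, and relative to that median the 33 genes stood at 0.36, as they did with TMM. Without fetal replicate 3 the counts of genes that rose were 22, 28 and 23. Genes called higher in the whole table then numbered 2419, 4298 and 4153 of 11519, against 2074, 3957 and 3587 of 11337 with all libraries.

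Sorted by their calls in the 3 comparisons, 12 genes rose at both steps and from end to end: Mvk, Pmvk, Ebp, Dhcr7, Srebf1, Srebf2, Scap, Insig1, Nr1h2, Abca1, Scarb1 and Npc2. A group of 6 (Fdft1, Sqle, Lss, Cyp51, Nsdhl and Hsd17b7) rose from fetal to neonatal and from fetal to adult libraries, with no call between neonatal and adult. Another 6 (Mvd, Nr1h3, Apoe, Lpl, Npc1 and Stard4) were called only in the comparisons with the adults, all higher there. The 4 genes Acat2, Hmgcs1, Sc5d and Insig2 were highest in the neonatal libraries and were not called between adult and fetal. Fdps was called only between adult and fetal libraries, Abcg1 fell and then rose, and Idi1, Msmo1 and Soat1 were called in no comparison. The share of all genes with each of these patterns was not worked out, so the counts are descriptions only.

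Several of the small differences lost their call when 1 library was left out. At the first step, the call of Ebp was lost without fetal replicate 1 or 2, any neonatal replicate or adult replicate 2 (adjusted p = 0.052 to 0.103), and that of Insig2 without any fetal or neonatal replicate or adult replicate 2 or 3 (0.0533 to 0.147). Srebf1 lost it without fetal replicate 2 or 3 or neonatal replicate 2 or 3 (0.057 to 0.0961), Srebf2 without fetal replicate 2, neonatal replicate 2 or 3 or adult replicate 2 (0.0514 to 0.126), and Nr1h2 without fetal replicate 2 or neonatal replicate 2 or 3 (0.063 to 0.0647). Mvk lost it without neonatal replicate 2 or 3, Pmvk and Scarb1 without neonatal replicate 1 or 2, and Scap without neonatal replicate 2 (0.0503 to 0.0709). At the second step, the calls of Sc5d and Scarb1 were lost without any neonatal or adult replicate (0.0502 to 0.106), and that of Insig2 without any of these or fetal replicate 1 (0.0537 to 0.118). Mvk lost it without neonatal replicate 1 (0.0506) and Stard4 without neonatal replicate 3 (0.0517). Between adult and fetal libraries, Lss lost its call without fetal replicate 1 or 2 or adult replicate 1 or 2 (0.0668 to 0.0883) and Hsd17b7 without fetal replicate 1 or 2 or adult replicate 1 (0.0511 to 0.08). With the replicate number as a block, Ebp (0.0525), Srebf1 (0.0612), Srebf2 (0.0539) and Insig2 (0.0677) were not called at the first step, nor Sc5d (0.0729) and Insig2 (0.0597) at the second. Left-out libraries also added calls, in the direction of the value. Without fetal replicate 3, Idi1 and Fdps rose at the first step, and Acat2 and Msmo1 rose from end to end. At the second step Fdps, Sqle, Cyp51 and Msmo1 then rose and Nsdhl fell. Without adult replicate 1, Lpl rose at the first step, and Nsdhl (0.0258), Hsd17b7 (0.0472) and Soat1 (0.0231) fell at the second. Without adult replicate 3, Lpl rose at the first step, Sqle at the second and Acat2 from end to end. Npc1 rose at the first step without fetal replicate 2 (0.0429).

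**Figure D1:**
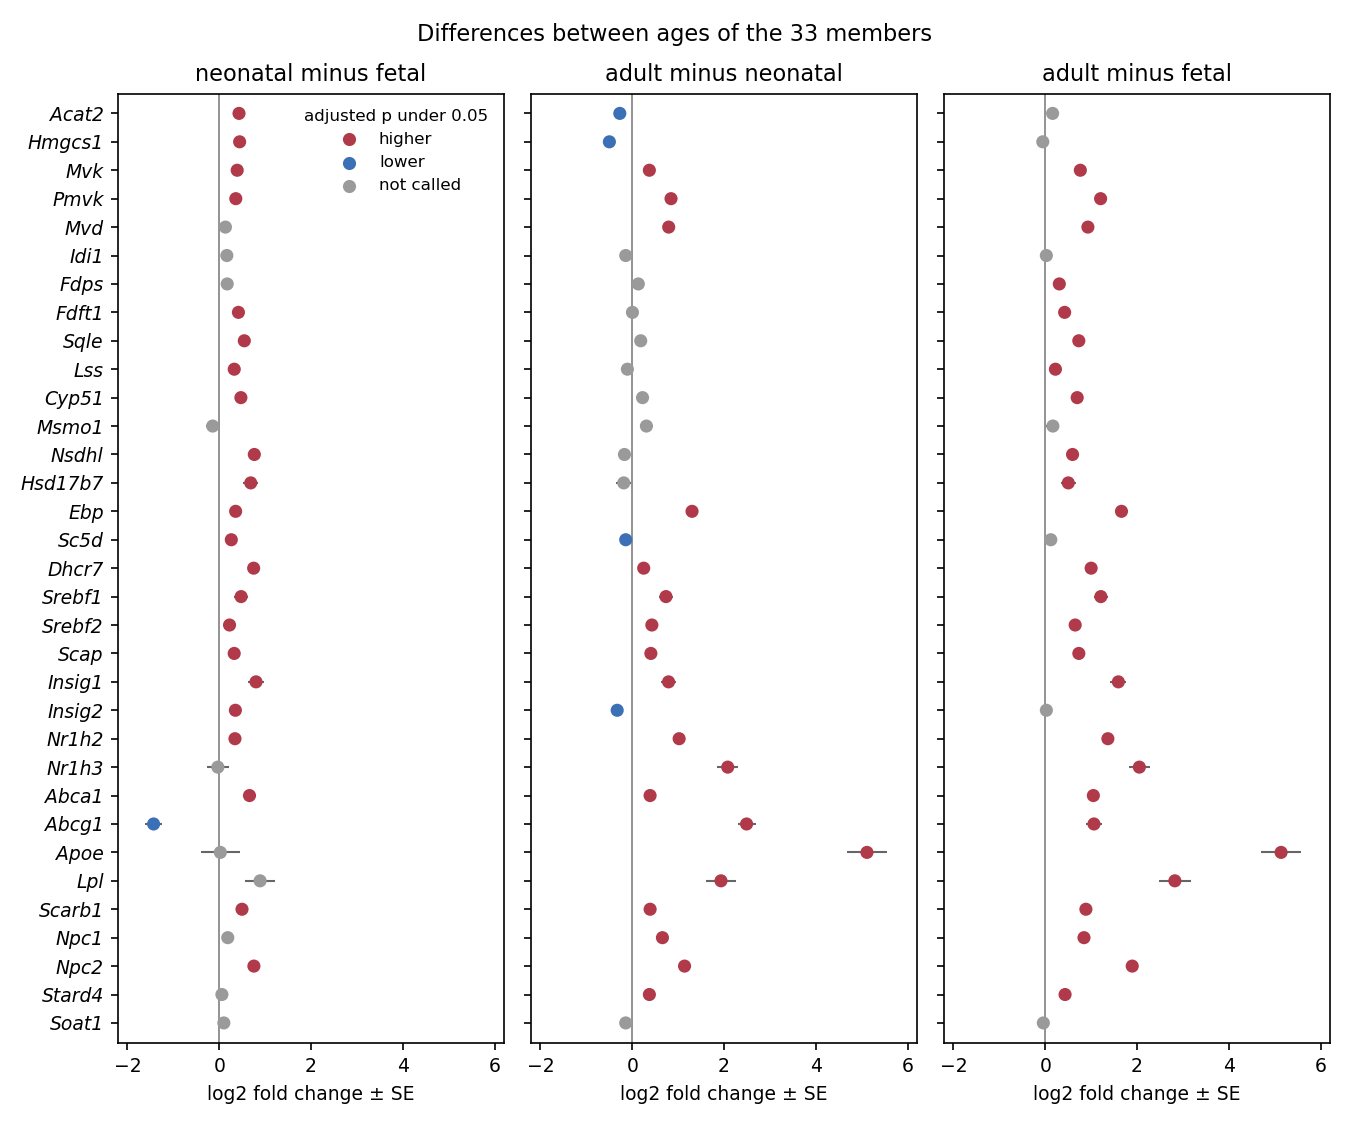
Log2 fold change (x axis) with its standard error (bars) of each of the 33 genes (y axis) in the 3 comparisons between ages, coloured by the call at an adjusted p under 0.05. Most points lie right of 0, Abcg1 is the only gene called lower between neonatal and fetal libraries, and Apoe at 5.14 lies farthest right between adult and fetal.

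The 17 synthesis genes were mostly higher in neonatal than in fetal libraries. In that comparison 13 of 17 rose and none fell, beside 18.3% of all genes higher and 18.0% lower. The median log2 fold change was 0.39, with a range of -0.14 to 0.76. Between adult and fetal libraries 12 rose and none fell, with a median of 0.50, beside 34.9% of all genes higher and 35.5% lower. Between adult and neonatal libraries Mvk, Pmvk, Mvd, Ebp and Dhcr7 rose, Acat2, Hmgcs1 and Sc5d fell, 9 were not called, and the median was 0.13; with 31.6% of all genes higher and 31.8% lower, these 5 of 17 are near the background and these 3 of 17 below it. Their summed level was 2479, 2490 and 2881 CPM in the fetal, 3271, 3285 and 3230 CPM in the neonatal and 3579, 3463 and 3224 CPM in the adult libraries. All fetal sums lay below all neonatal sums, while neonatal and adult sums overlapped; the ratio of the mean sums was 1.25 for neonatal to fetal and 1.05 for adult to neonatal. With scaling by library size alone 5 of the 17 were called higher between neonatal and fetal libraries, although 16 of the 17 stayed above the all-gene median as they did with TMM. Without fetal replicate 3 the counts that rose were 15, 14 and 9, and 4 fell between neonatal and adult libraries. More genes of the whole table were also called without that library.

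The first 2 genes of the pathway were highest in the neonatal libraries. Acat2, a thiolase that joins acetyl-CoA units in the cytosol, averaged 67.3 ± 3.96 CPM in fetal, 90.7 ± 4.26 CPM in neonatal and 75.2 ± 4.84 CPM in adult libraries (SD, n = 3 throughout). Hmgcs1, which makes HMG-CoA and is a well-known SREBP target, averaged 423 ± 26.7, 575 ± 14.8 and 407 ± 65.6 CPM. Both genes were higher in every neonatal library than in any fetal or adult library. The rise of Hmgcs1 to the neonatal age was 0.44 ± 0.11 (log2 fold change ± SE, adjusted p = 0.014) and its drop from there to the adults was -0.50 ± 0.11 (adjusted p = 0.0034). Between adult and fetal libraries Hmgcs1 stood at -0.05 ± 0.11, with libraries of both ages overlapping between 339 and 470 CPM in the adults and 404 and 453 CPM in the fetal cells.

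The next 3 enzymes, which phosphorylate mevalonate and turn it into the first isoprenoid unit, were highest in the adults. Mvk, mevalonate kinase, averaged 36.8 ± 5.71, 48.2 ± 2.25 and 62.4 ± 1.82 CPM in fetal, neonatal and adult libraries. Pmvk, phosphomevalonate kinase, was at 33.6, 37.4 and 40.4 CPM in the fetal, 48.5, 48.0 and 46.7 CPM in the neonatal and 95.6, 78.7 and 83.2 CPM in the adult libraries. No 2 ages overlapped for Pmvk, and its log2 fold change was 0.36 ± 0.09 at the first step, 0.85 ± 0.09 at the second and 1.21 ± 0.09 from end to end (adjusted p = 3.05e-06). Mvd, mevalonate diphosphate decarboxylase, averaged 39.7 ± 4.15 and 43.5 ± 2.43 CPM in fetal and neonatal libraries, which overlapped, and 75.5 ± 6.24 CPM in the adults. It rose by 0.79 ± 0.10 between the neonatal and adult ages.

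The isoprenoid enzymes that follow differed little between ages. Idi1, the isomerase that makes the reactive isoprenoid unit, averaged 95.7 ± 15.3, 107 ± 3.73 and 97.3 ± 11.6 CPM, and no difference was called with all 9 libraries. Its exons share 100 bases with Wdr37 on the opposite strand, and the counting recorded no strand setting, so reads there cannot be told apart. Fdps, which makes farnesyl diphosphate, averaged 534 ± 44.0, 602 ± 15.8 and 660 ± 15.9 CPM and rose by 0.31 ± 0.07 between fetal and adult libraries (adjusted p = 0.0046), a call that was not made with scaling by library size alone (adjusted p = 0.14).

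In the main fit, the squalene steps were called at the first step with age and not at the second. Fdft1, squalene synthase, averaged 177 ± 3.56 CPM in fetal, 236 ± 6.96 CPM in neonatal and 237 ± 12.7 CPM in adult libraries. Sqle, squalene epoxidase and a rate-limiting step, averaged 151 ± 7.62, 220 ± 6.80 and 250 ± 19.9 CPM, and Lss, which closes the rings to lanosterol, 64.6 ± 2.75, 81.0 ± 3.01 and 75.3 ± 6.34 CPM. The rise to the neonatal age was 0.42 ± 0.06 for Fdft1, 0.55 ± 0.07 for Sqle and 0.33 ± 0.07 for Lss. None of the 3 was called between neonatal and adult libraries in that fit, where Sqle had an adjusted p of 0.052. Sqle was called there with DESeq2 (adjusted p = 0.030), with DESeq2 size factors in edgeR (0.039), with library size alone (0.021) and with only the ages compared (0.030). It was also called without fetal replicate 3 (0.023) or adult replicate 3 (0.017).

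The demethylation of lanosterol needs Cyp51, Msmo1, Nsdhl and Hsd17b7. Cyp51 averaged 363 ± 47.8, 503 ± 2.77 and 587 ± 19.8 CPM and rose by 0.47 ± 0.09 between the fetal and neonatal ages. Its rise between neonatal and adult libraries was not called in the main fit (adjusted p = 0.056). It was called with DESeq2 (0.031), with DESeq2 size factors in edgeR (0.047), with only the ages compared (0.0025) and without fetal replicate 3 (0.00092). Nsdhl, a sterol dehydrogenase, averaged 68.5 ± 1.85, 116 ± 3.99 and 104 ± 8.12 CPM, and its neonatal rise of 0.76 ± 0.07 (adjusted p = 9.1e-05) was the highest fold change among the 17 synthesis genes at that step. Hsd17b7, a keto-reductase, averaged 10.9 ± 1.04, 17.5 ± 1.16 and 15.4 ± 3.67 CPM and rose by 0.69 ± 0.17 at the neonatal age; it shares 426 exon bases with a gene on the opposite strand. Msmo1, a sterol methyl oxidase, was the exception among these 4, with 370 ± 86.7, 335 ± 5.45 and 415 ± 34.5 CPM and no call. Fetal replicate 3 held 470 CPM of Msmo1 and the other two fetal libraries 318 and 321 CPM; without it, the rise from fetal to adult libraries was 0.37 ± 0.07 (adjusted p = 0.00038).

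The last steps set the double bonds of cholesterol. Ebp, the sterol isomerase at chrX:15049462-15055782 (rat genome build rn6), was at 17.3, 17.3 and 22.5 CPM in the fetal, 24.0, 24.2 and 25.1 CPM in the neonatal and 66.1, 57.7 and 57.0 CPM in the adult libraries. The adult libraries stood far above all others, and the log2 fold change of 1.66 ± 0.12 from fetal to adult (adjusted p = 1.56e-06) was the highest of the 17. Dhcr7, a sterol reductase at the end of the pathway, was at 45.9, 41.9 and 41.5 CPM, then 72.2, 74.8 and 70.3 CPM, then 85.2, 89.9 and 83.4 CPM. No 2 ages overlapped for Dhcr7, and most of its rise of 1.00 ± 0.07 lay at the first step, at 0.75 ± 0.07. Sc5d, the desaturase between them, averaged 118 ± 4.14, 141 ± 1.29 and 128 ± 0.846 CPM; its drop of -0.14 ± 0.05 to the adults had an adjusted p of 0.039.

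**Figure D2:**
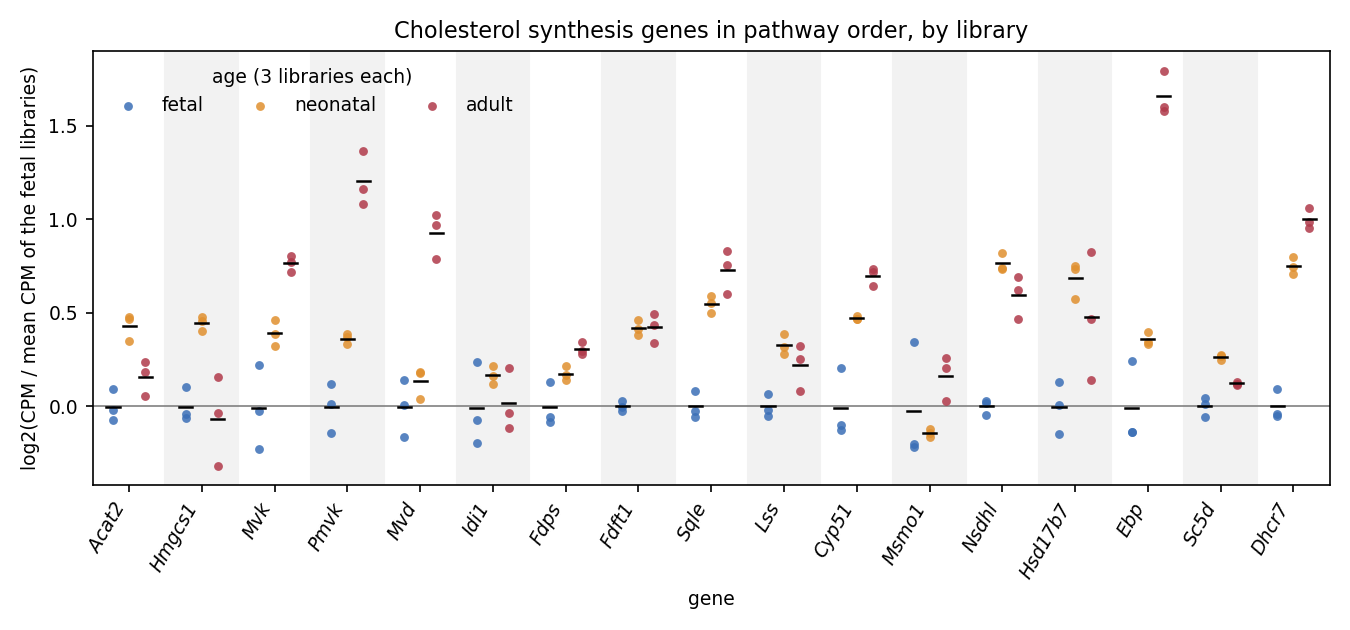
Level of each synthesis gene in each library, as log2 of its CPM over the mean CPM of the fetal libraries (y axis), in pathway order (x axis); points are libraries coloured by age and black bars the mean of 3 libraries. Neonatal points lie above the fetal points for most genes, adult points rise further for Pmvk, Mvd and Ebp, and adult Hmgcs1 falls back among the fetal points.

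The range of levels within the pathway was wide. Per kilobase of exon, Fdps was the most abundant synthesis gene at every age, with mean levels of 420, 474 and 519 CPM per kilobase in fetal, neonatal and adult libraries. Msmo1 came next at 216, 196 and 242 CPM per kilobase, and Hsd17b7 was last at 6.39, 10.3 and 9.06. Hmgcs1 held the third place in fetal and neonatal libraries, at 129 and 176 CPM per kilobase, and Cyp51 held it in the adults at 195. Ebp moved from rank 15 in fetal to rank 10 in adult libraries (18.1 to 57.1 CPM per kilobase) and Pmvk from rank 9 to rank 6.

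Libraries of 1 age also differed from each other over the pathway. In fetal replicate 3, 12 of the 17 synthesis genes had their highest fetal level, with a median deviation of 0.10 (log2) from the fetal mean. In the adults, 13 genes were highest in replicate 1 and 14 lowest in replicate 3, with median deviations of 0.096 and -0.10. The neonatal libraries lay within 0.01 of their mean by this measure.

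The promoters of these genes carry letters that bear on the pathway's known control. NF-Y, a general transcription factor, binds the CCAAT box and is known to work with SREBPs on several sterol genes, so windows from 250 bases before to 50 bases after each RefSeq gene start (build GRCr8) were searched for CCAAT on both strands; on the reverse strand it reads ATTGG. A window was given for 26 of the 33 genes, and not for Abcg1, Fdft1, Lpl, Pmvk, Scarb1, Sqle and Stard4. The box was present in 11 of 14 synthesis genes with a window (78.6%) and in 18 of all 26 (69.2%), beside 38.0% of 8613 tested genes and 39.6% of 27457 genes with a window. Dhcr7, Cyp51 and Acat2 were the synthesis genes without it in the window. The 9 letters TCACNCCAC, the core of a sterol regulatory element, were found in 0 of 26 on either strand and in 1.25% of all genes with a window. The direct repeat of AGGTCA with 4 bases between the copies, known from liver X receptor targets, was found in 0 of 26 and in 2 of 27457. No match says only that these letters are not in the window.

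The stretches before the start that hold the boxes are shown for 5 synthesis genes: Hmgcs1, which peaked in the neonatal libraries; Mvk, which rose at both steps; Fdps, the most abundant; Nsdhl, with the highest neonatal fold change; and Ebp, with the highest adult one. Each runs 5′ to 3′ on the gene's own strand (GRCr8, RefSeq), with CCAAT and ATTGG in capitals.
Hmgcs1, chr2:53382108-53382183, plus strand: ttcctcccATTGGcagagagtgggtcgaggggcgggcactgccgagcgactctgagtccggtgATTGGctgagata
Mvk, chr12:47819505-47819684, minus strand: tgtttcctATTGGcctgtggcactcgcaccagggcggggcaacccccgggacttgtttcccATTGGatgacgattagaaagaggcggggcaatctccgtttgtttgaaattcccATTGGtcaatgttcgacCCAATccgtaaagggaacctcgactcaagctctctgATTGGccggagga
Fdps, chr2:176804889-176804954, minus strand: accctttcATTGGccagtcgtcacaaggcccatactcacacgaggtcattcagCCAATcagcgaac
Nsdhl, chrX:155817144-155817307, plus strand: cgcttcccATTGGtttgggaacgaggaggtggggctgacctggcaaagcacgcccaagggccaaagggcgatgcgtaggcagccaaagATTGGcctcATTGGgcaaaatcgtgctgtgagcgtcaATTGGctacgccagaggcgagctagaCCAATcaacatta
Ebp, chrX:16971339-16971389, plus strand: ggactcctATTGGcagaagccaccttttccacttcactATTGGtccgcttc
Mvk and Nsdhl hold 5 boxes each in these stretches and Hmgcs1, Fdps and Ebp 2 each. A match is a description of the letters only.

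Of the 5 sensing genes, 4 rose at each step, and Insig2 rose at the first and fell at the second. Of all genes, 18.3% were higher at the first step and 31.6% at the second. Their summed level was 355 to 436 CPM in fetal, 519 to 558 CPM in neonatal and 786 to 857 CPM in adult libraries, with no overlap between ages. All 5 had their lowest fetal level in fetal replicate 3.

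Srebf1, which encodes the SREBP-1 forms and is itself a target of liver X receptors, was at 104, 93.6 and 73.4 CPM in the fetal, 114, 131 and 132 CPM in the neonatal and 176, 213 and 240 CPM in the adult libraries. The 3 ages did not overlap, and the log2 fold changes were 0.48 ± 0.15, 0.74 ± 0.15 and 1.21 ± 0.15 for the first step, the second step and end to end. Srebf1 shares 595 exon bases with Rai1 on the opposite strand. Srebf2, which encodes SREBP-2, the main driver of synthesis genes, was at 159, 148 and 144 CPM, then 166, 186 and 175 CPM, then 246, 239 and 223 CPM. Its steps were smaller than those of Srebf1 in size, at 0.22 ± 0.07 and 0.43 ± 0.07. Scap, the escort protein, was at 82.4, 76.0 and 68.0 CPM in fetal, 89.9, 97.5 and 96.4 CPM in neonatal and 129, 130 and 117 CPM in adult libraries. It rose by 0.33 ± 0.08 and 0.41 ± 0.08 at the 2 steps.

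The Insig pair took different courses. Insig1, whose gene is a strong SREBP target, was at 82.4, 86.1 and 62.5 CPM in the fetal, 139, 134 and 130 CPM in the neonatal and 298, 202 and 197 CPM in the adult libraries. It rose by 0.80 ± 0.17 and then by 0.79 ± 0.17, with adult replicate 1 well above the other two adults; without that library the second step was 0.57 ± 0.12 (adjusted p = 0.0041). Insig2, which is known to be less dependent on SREBP, was at 8.43, 8.86 and 7.23 CPM, then 10.7, 10.6 and 10.0 CPM, then 8.19, 8.67 and 8.09 CPM. Every neonatal library was above every other, but the rise of 0.35 ± 0.12 (adjusted p = 0.049) and the drop of -0.33 ± 0.12 (adjusted p = 0.043) were both near the threshold. Per kilobase of exon, Insig1 was above Insig2 at each age, at 31.8 against 11.3 in fetal, 55.5 against 14.5 in neonatal and 96.1 against 11.5 in adult libraries.

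Both liver X receptor genes were highest in the adults. Nr1h2, the receptor found in most tissues, was at 52.1, 43.6 and 42.8 CPM in the fetal, 56.2, 59.0 and 60.4 CPM in the neonatal and 131, 116 and 109 CPM in the adult libraries. It rose by 0.34 ± 0.10 and then by 1.02 ± 0.10 (adjusted p = 1.67e-05). Nr1h3, the receptor rich in liver, fat and macrophages, was at 3.13, 2.25 and 3.13 CPM, then 2.42, 2.97 and 2.91 CPM, then 14.5, 8.96 and 11.8 CPM. Fetal and neonatal libraries overlapped for Nr1h3 (-0.03 ± 0.23), and the adults stood above both, by 2.08 ± 0.23 against neonatal libraries (adjusted p = 4.52e-05). The summed macrophage markers averaged 38.8 CPM in fetal, 187 CPM in neonatal and 6065 CPM in adult libraries; their part in the level of Nr1h3 was not tested.

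The efflux genes ended high in the adults by different routes. Abca1, which loads cholesterol onto lipid-poor apolipoproteins, was at 47.9, 54.8 and 49.6 CPM in the fetal, 79.6, 82.6 and 78.3 CPM in the neonatal and 109, 106 and 100.4 CPM in the adult libraries. It climbed at both steps with no overlap between ages, by 0.66 ± 0.07 and 0.39 ± 0.07, to 1.05 ± 0.07 in all (adjusted p = 1.17e-06).

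Abcg1, which passes cholesterol to mature lipoprotein particles (chr20:9743269-9840489, rn6), was the only one of the 33 genes to fall to the neonatal age. It was at 24.0, 27.9 and 39.7 CPM in the fetal, 9.91, 11.9 and 12.2 CPM in the neonatal and 54.0, 66.4 and 70.8 CPM in the adult libraries. The 3 ages did not overlap. The fall was -1.43 ± 0.19 (adjusted p = 0.00072) and the rise from there to the adults 2.49 ± 0.20 (adjusted p = 6.07e-06), a 5.63-fold ratio of means. Without fetal replicate 3, which held the most Abcg1 of the fetal libraries, the fall was -1.20 ± 0.13. Abca1 and Abcg1, both known targets of the liver X receptors, thus moved in opposite directions between fetal and neonatal libraries.

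Apoe, the apolipoprotein that macrophages and many other cells secrete (chr1:80612894-80616820, rn6), had the highest fold change of the 33 genes. It was at 9.61, 8.64 and 10.8 CPM in the fetal, 10.2, 9.71 and 9.58 CPM in the neonatal and 588, 259 and 177 CPM in the adult libraries. The fetal and neonatal libraries overlapped (0.02 ± 0.42), and the lowest adult library was far above all of them. The ratio of means was 35.2 between adult and fetal libraries, at a log2 fold change of 5.14 ± 0.44 (adjusted p = 9.39e-06), and 4.50 ± 0.17 without adult replicate 1. The macrophage sum in the 3 adult libraries was 5050, 6129 and 7016 CPM and the fibroblast sum 27042, 33048 and 35606 CPM. Most of the fibroblast sum was Col1a1 (11890, 15691 and 17313 CPM) and Col3a1 (8156, 9831 and 10415 CPM). Single markers ran both ways. Pdgfra (669, 384 and 245 CPM), Dcn (471, 359 and 230 CPM), Tcf21 and Cd163 fell from adult replicate 1 to 3. Thy1, Postn, Vim and most of the other macrophage markers rose. The part of these cell types in the level of Apoe was not tested.

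**Figure D3:**
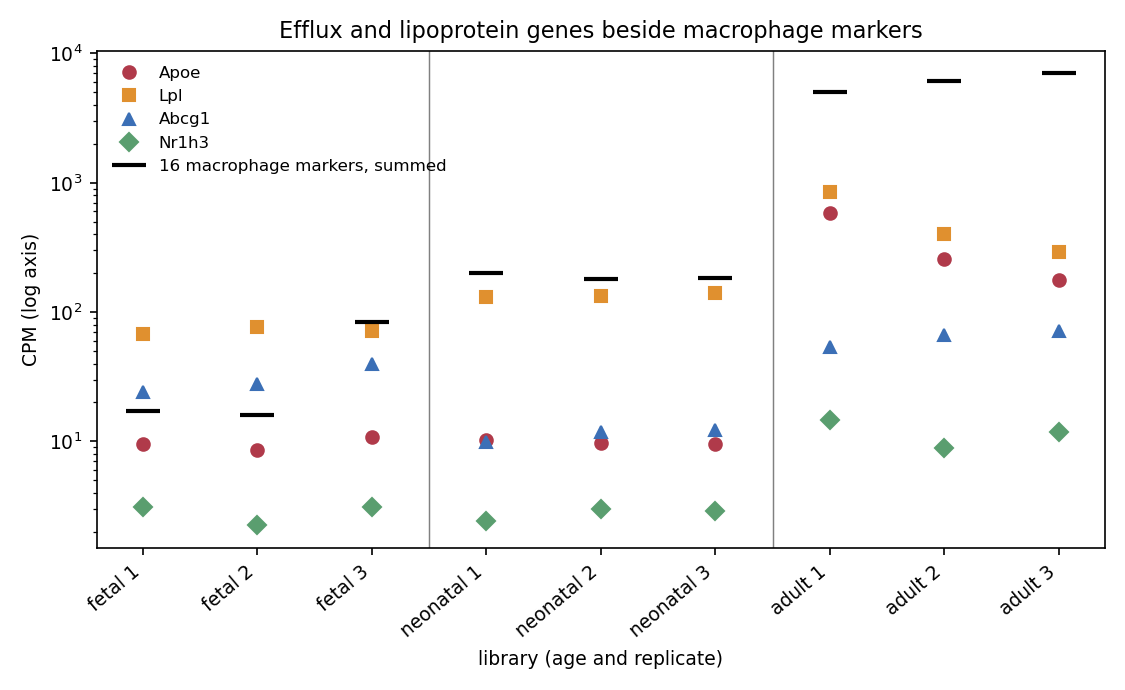
Level in CPM on a log axis (y axis) of Apoe, Lpl, Abcg1 and Nr1h3 in each of the 9 libraries (x axis), beside the sum of 16 macrophage markers (black bars). All 5 are highest in the adults, where Apoe and Lpl are highest in replicate 1 and Abcg1 and the macrophage sum are highest in replicate 3, and the neonatal libraries have a higher macrophage sum than the fetal ones with similar Apoe and less Abcg1.

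Among the 6 genes of uptake and handling, 2 rose at the neonatal age and 5 rose between the neonatal and adult ages. None fell in any comparison with all 9 libraries. Of all genes, 18.3% rose and 18.0% fell at the first of these steps and 31.6% and 31.8% at the second. With 6 genes these counts are descriptions. Lpl, the lipase that releases fatty acids from lipoproteins and can bridge them to the cell surface, was at 67.6, 77.2 and 71.9 CPM in the fetal, 130, 132 and 140 CPM in the neonatal and 842, 404 and 289 CPM in the adult libraries. The ages did not overlap. The neonatal difference of 0.89 ± 0.33 was not called (adjusted p = 0.062), but it was called with DESeq2 (adjusted p = 0.014), with only the ages compared in the fit (adjusted p = 0.00031) and without adult replicate 1 (adjusted p = 0.0010). The adult rise over the fetal libraries was 2.82 ± 0.34 (adjusted p = 8.55e-05) and 2.27 ± 0.13 without adult replicate 1, the library highest in both Lpl and Apoe.

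Scarb1, the receptor that takes up cholesteryl esters from high-density lipoprotein, averaged 75.2 ± 16.2, 106 ± 0.973 and 139 ± 3.62 CPM. It rose by 0.50 ± 0.13 and 0.39 ± 0.13 at the 2 steps, with adjusted p-values of 0.018 and 0.027.

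The lysosomal pair Npc1 and Npc2 hands cholesterol from digested lipoproteins on to the rest of the cell. Npc2, the soluble carrier, was at 295, 278 and 230 CPM in the fetal, 464, 447 and 447 CPM in the neonatal and 965, 964 and 1062 CPM in the adult libraries. Its levels did not overlap between ages and rose by 0.76 ± 0.10 and 1.14 ± 0.10, to 1.90 ± 0.10 in all (adjusted p = 2.63e-07). Npc1, the membrane partner, averaged 45.0 ± 6.21, 51.2 ± 2.22 and 80.8 ± 3.64 CPM. With all 9 libraries it rose at the second step, by 0.66 ± 0.10, and was not called at the first. Without fetal replicate 2 it also rose at the first step (adjusted p = 0.043). Of its exon bases, 153 are shared with a gene on the opposite strand. Per kilobase of exon, Npc2 was far above Npc1, at 213 against 8.71 in fetal and 794 against 15.6 CPM per kilobase in adult libraries.

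Stard4, a carrier that moves sterol between membranes, averaged 21.3 ± 2.85, 22.2 ± 0.592 and 28.7 ± 2.09 CPM and rose by 0.37 ± 0.11 at the second step. Soat1, which esterifies cholesterol for storage, averaged 91.0 ± 4.59, 97.6 ± 4.30 and 88.5 ± 10.9 CPM and was called in no comparison with all 9 libraries. Without adult replicate 1 it was lower in adult than in neonatal libraries, at -0.24 (adjusted p = 0.023).

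**Figure D4:**
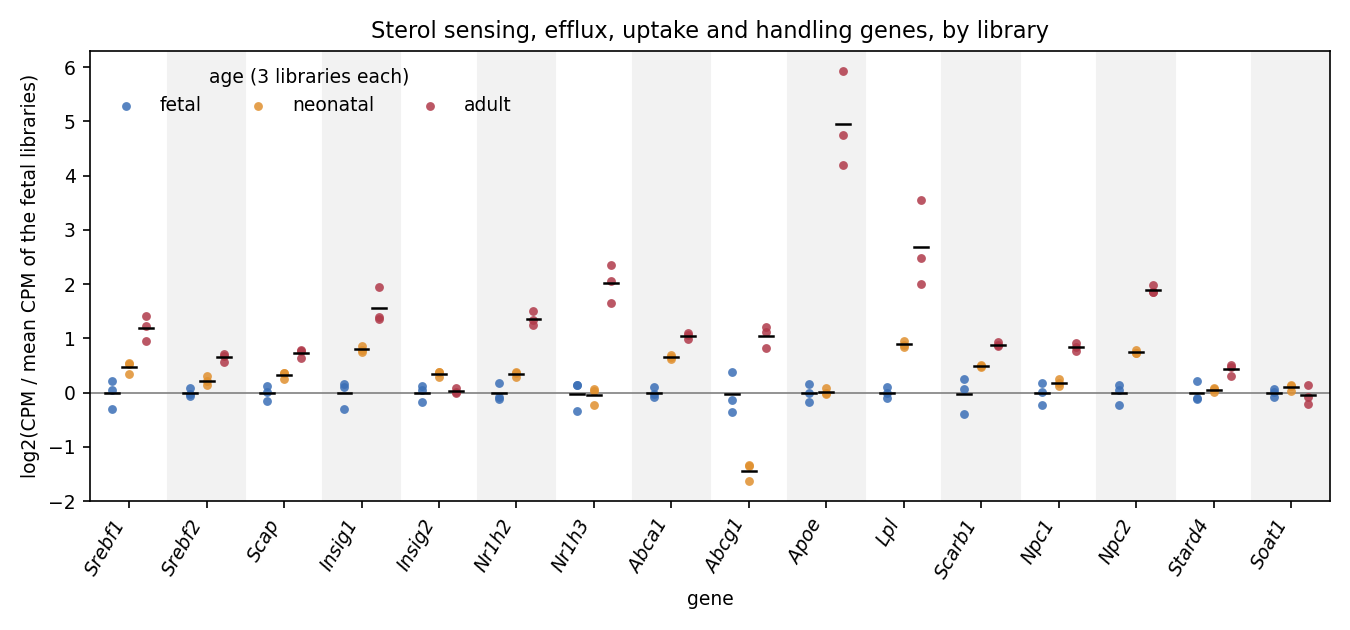
Level of each sensing, efflux, uptake and handling gene in each library, as log2 of its CPM over the mean CPM of the fetal libraries (y axis), by gene (x axis); points are libraries coloured by age and black bars the mean of 3 libraries. Adult Apoe, Lpl and Insig1 spread widely, neonatal Abcg1 lies below 0, and Insig2 and Soat1 stay close to 0.

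Other genes of sterol and lipid metabolism, in 8 further lists, moved in both directions. Of 71 such genes tested, 27 rose and 7 fell between fetal and neonatal libraries, 31 rose and 21 fell between fetal and adult libraries, and 24 rose and 20 fell between neonatal and adult libraries. The all-gene shares for the same comparisons were 18.3% and 18.0%, 34.9% and 35.5%, and 31.6% and 31.8%, so the last pair of counts lies near the background; the single lists are short and their counts are descriptions. Counts below are given in that order of comparisons, and from each list the genes with the highest rise and the deepest fall between fetal and adult libraries are named.

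Closest to the synthesis genes were 6 other genes of sterol synthesis, of which 3, 4 and 3 rose and 1, 2 and 1 fell. Tm7sf2, a sterol reductase, rose from 20.2 ± 3.45 CPM in fetal to 67.7 ± 11.1 CPM in adult libraries, a log2 fold change of 1.74. Acat1, a mitochondrial thiolase, fell from 115 ± 21.9 to 74.1 ± 4.23 CPM (-0.64). In the isoprenoid branch, which uses farnesyl diphosphate for protein prenylation, dolichol and ubiquinone, 11 of 12 genes were tested; 0, 1 and 2 rose and 1, 5 and 2 fell. Dhdds, a dolichol enzyme, rose by 0.31 and Pggt1b, a prenyltransferase subunit, fell by 1.16 on the log2 scale.

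Of 7 genes of SREBP processing and sterol-dependent turnover that were tested, 2, 1 and 1 rose and 1, 4 and 4 fell. Mbtps2, the protease that makes the second cut in SREBPs, fell from 10.9 ± 3.15 CPM in fetal to 5.81 ± 0.484 CPM in adult libraries (-0.91, adjusted p = 0.0044), and Erlin1, which takes part in Insig-linked turnover in the endoplasmic reticulum, rose by 0.31. Fatty acid synthesis genes, known targets of SREBP-1, moved in both directions: of 13 tested, 5, 3 and 3 rose and 3, 3 and 5 fell. Scd, a desaturase (Scd1 in the count table), rose from 165 ± 13.2 to 440 ± 16.5 CPM (1.41) and Me1, malic enzyme, fell from 262 ± 82.1 to 87.7 ± 14.8 CPM (-1.58).

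On the uptake side, 9 lipoprotein and scavenger receptor genes were tested; 6, 6 and 2 rose and 0, 1 and 1 fell. Msr1, a macrophage scavenger receptor, was at 1.84 ± 2.59 CPM in fetal, 12.1 ± 1.34 CPM in neonatal and 251 ± 12.3 CPM in adult libraries. Sorl1, a sorting receptor, went from 4.13 ± 2.17 CPM in the fetal to 0.748 ± 0.276 CPM in the adult libraries, a fall by 2.46 on the log2 scale. Of 13 genes of intracellular sterol transport, storage and hydrolysis, 7, 7 and 4 rose and 0, 4 and 5 fell. Gramd1b rose by 1.69 and Gramd1c fell by 1.36 on the log2 scale between fetal and adult libraries, although both encode carriers that take cholesterol from the plasma membrane to the endoplasmic reticulum.

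On the efflux side, 6 further efflux and lipoprotein genes were tested; 0, 3 and 3 rose and 1, 2 and 2 fell. Pltp, phospholipid transfer protein, rose from 30.6 ± 12.8 CPM in fetal to 115 ± 9.92 CPM in adult libraries (1.91). Clu, clusterin, fell from 1122 ± 143 to 273 ± 185 CPM (-2.04), with adult levels of 481, 212 and 126 CPM. In the list of oxysterol and bile acid enzymes, 6 genes were tested: Ch25h, Cyp27a1, Cyp7b1, Cyp39a1, Hsd3b7 and Star, of which Star encodes a cholesterol carrier and not an enzyme. Of these, 4, 6 and 6 rose and none fell. Ch25h, which makes an oxysterol that suppresses SREBP processing, was at 0.324, 0.705 and 0.903 CPM in the fetal, 5.06, 5.53 and 5.89 CPM in the neonatal and 297, 197 and 219 CPM in the adult libraries. The 3 ages were far apart, and the fetal to adult log2 fold change was 8.50 ± 0.27 (adjusted p = 1.74e-08). The sum of macrophage markers rose between the same ages as Ch25h and Msr1; its part in these values was not tested.

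**Figure D5:**
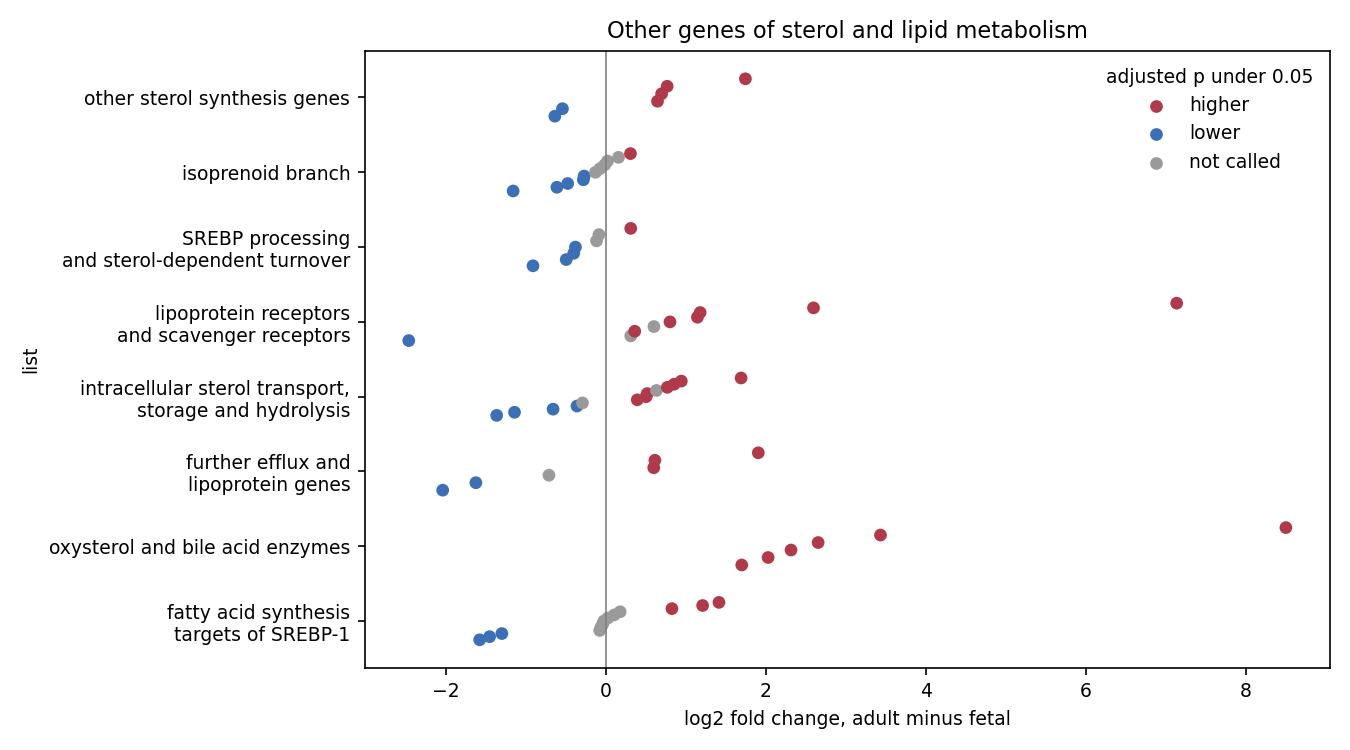
Log2 fold change of adult against fetal libraries (x axis) for each tested gene of the 8 further lists (y axis), coloured by the call at an adjusted p under 0.05. The genes listed under oxysterol and bile acid enzymes all lie right of 0 with Ch25h at 8.50, while genes of the isoprenoid branch and of SREBP processing lie mostly left of it.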

How the data were processed

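Bulk RNA-seq libraries, 3 per age, were analysed from the deposited table of read counts per gene, which the authors made with featureCounts 1.6.3 on rn6, per the file headers. The header shows no strand or multi-mapping option, so program defaults applied (unstranded, multi-mapped reads left out). Trimmomatic 0.39, STAR 2.5.2b, Subread 1.6.3, FastQC and DESeq2 are named, per the submitters' processing notes. A second deposited table holds signal values that equal the counts divided by 1 size factor per library; it was checked and not tested. Counts were fitted with edgeR 4.0.16 (R 4.3.3): filterByExpr by age, TMM, robust quasi-likelihood test, all 9 libraries, age only, Benjamini-Hochberg adjustment over 11337 genes. A standard error is the size of the log2 fold change over the root of F. Replicates differed beyond counting error, and the code was tested on simulated data. The main fit did not pair libraries by replicate number, and whether same-numbered libraries were prepared together is not known. Alternatives were DESeq2 1.42.0, other scalings, no filter, a block, other thresholds and each library left out. The 33 genes and all lists were chosen with earlier results of these data known. Members with a called log2 fold change of at least 1 and all sensing and liver X receptor genes are given by library, the rest by means. Promoter windows are from RefSeq GRCr8. Some further genes of the pathway are not reported here.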

Additional observations from a re-analysis of the deposited data

How the results depend on the processing

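No called difference changed direction under any alternative. Among the values of single genes, 1487 kept their status, whether called or not called, 31 gained a call and 165 lost it. Of the losses, 52 came from the log2 fold change threshold and 18 from the adjusted p threshold of 0.01. Those 2 settings reuse the main fit, so no direction could change there. Differences that were not called changed sign in 30 fits, over 13 gene and comparison pairs, at sizes up to 0.15. Genes higher in neonatal than in fetal libraries numbered 22, and 9 with library size alone, 11 at an adjusted p under 0.01 and 0 at a log2 fold change of at least 1; leaving out 1 library gave 13 (without neonatal replicate 2) to 23. Genes higher in adult than in fetal libraries numbered 26, and 12 at a log2 fold change of at least 1; leaving out 1 library gave 24 to 28. Genes higher in adult than in neonatal libraries numbered 19, and 7 at a log2 fold change of at least 1; leaving out 1 library gave 17 to 23. Genes lower in adult than in neonatal libraries numbered 4, and 1 with library size alone, 2 with the replicate number as a block, 2 at an adjusted p under 0.01 and 0 at a log2 fold change of at least 1; leaving out 1 library gave 2 (each neonatal replicate, adult replicates 2 and 3) to 5. The cause was not tested. The block changed 6 calls in all. The deviations of each library from the mean of its age were also correlated over genes between libraries of different ages. These correlations were between -0.065 and 0.052 for same-numbered libraries and between -0.055 and 0.080 for the others. Where leaving out 1 library left 2 at an age, the spread was pooled over ages. The number of libraries, 3 per age, limits the precision, and the effect of depth on the calls was not tested.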
